A study of Mus musculus with 4 samples.

Results

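Autophagy is the route by which a cell wraps part of its contents in a double membrane, the autophagosome, and delivers it to the lysosome for breakdown. The genes described here are 50 genes of that route, taken from the 32808 genes with a symbol in the deposited table: 5 of the initiating kinase complex, 8 of the lipid kinase complex and its regulators, 8 of membrane supply, 11 of the conjugation system, 5 of the ATG8 family, 4 of fusion, 5 cargo receptors and 4 genes of mitophagy, the autophagy of mitochondria. They were chosen by name, and all 50 had rows in the table. The RNA came from a long-passaged culture of C57BL/6 female germline stem cells, kept for 4 h with spermidine or without it. Each group had 2 libraries, control replicates 1 and 2 and spermidine replicates 1 and 2, and the labels give both groups the same cell type, strain, passage and time, with spermidine as the difference. The dose is not stated in the labels. Nothing in the labels ties the replicates to separate cultures, and the p-values below thus reflect only the spread between these libraries, which may be technical.

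In the pathway, the ULK kinase complex receives signals of nutrient state, the class III lipid kinase complex then marks the membrane with phosphatidylinositol 3-phosphate, and WIPI proteins, ATG2 and ATG9 bring lipid to it. A conjugation system related to ubiquitin attaches the small ATG8 proteins, LC3 and the GABARAPs, to the growing membrane. Receptors such as p62 hold cargo to the ATG8 proteins, and tethers and SNARE proteins fuse the finished vesicle with the lysosome. Spermidine is a natural polyamine studied as an inducer of autophagy. Much of the pathway's control acts on protein modification, which transcript counts do not measure.

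Which of these genes could be read at all depended on how the table was counted. Its rows are RefSeq transcripts, and reads lying over several rows appear to have been left out: 49975 rows share every base with other rows, and together they took no more than 0.0014% of any library. A gene is therefore counted on bases that no other row shares, called here its own bases. The 50 genes had 169 rows and 201322 exonic bases, of which 46850 (23.3%) were their own. With at least 300 own bases taken as readable, 29 of the 50 genes were readable and 21 were not. Among all genes with a symbol, 67.8% were readable, against 58% of the autophagy genes.

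**Figure D1:**
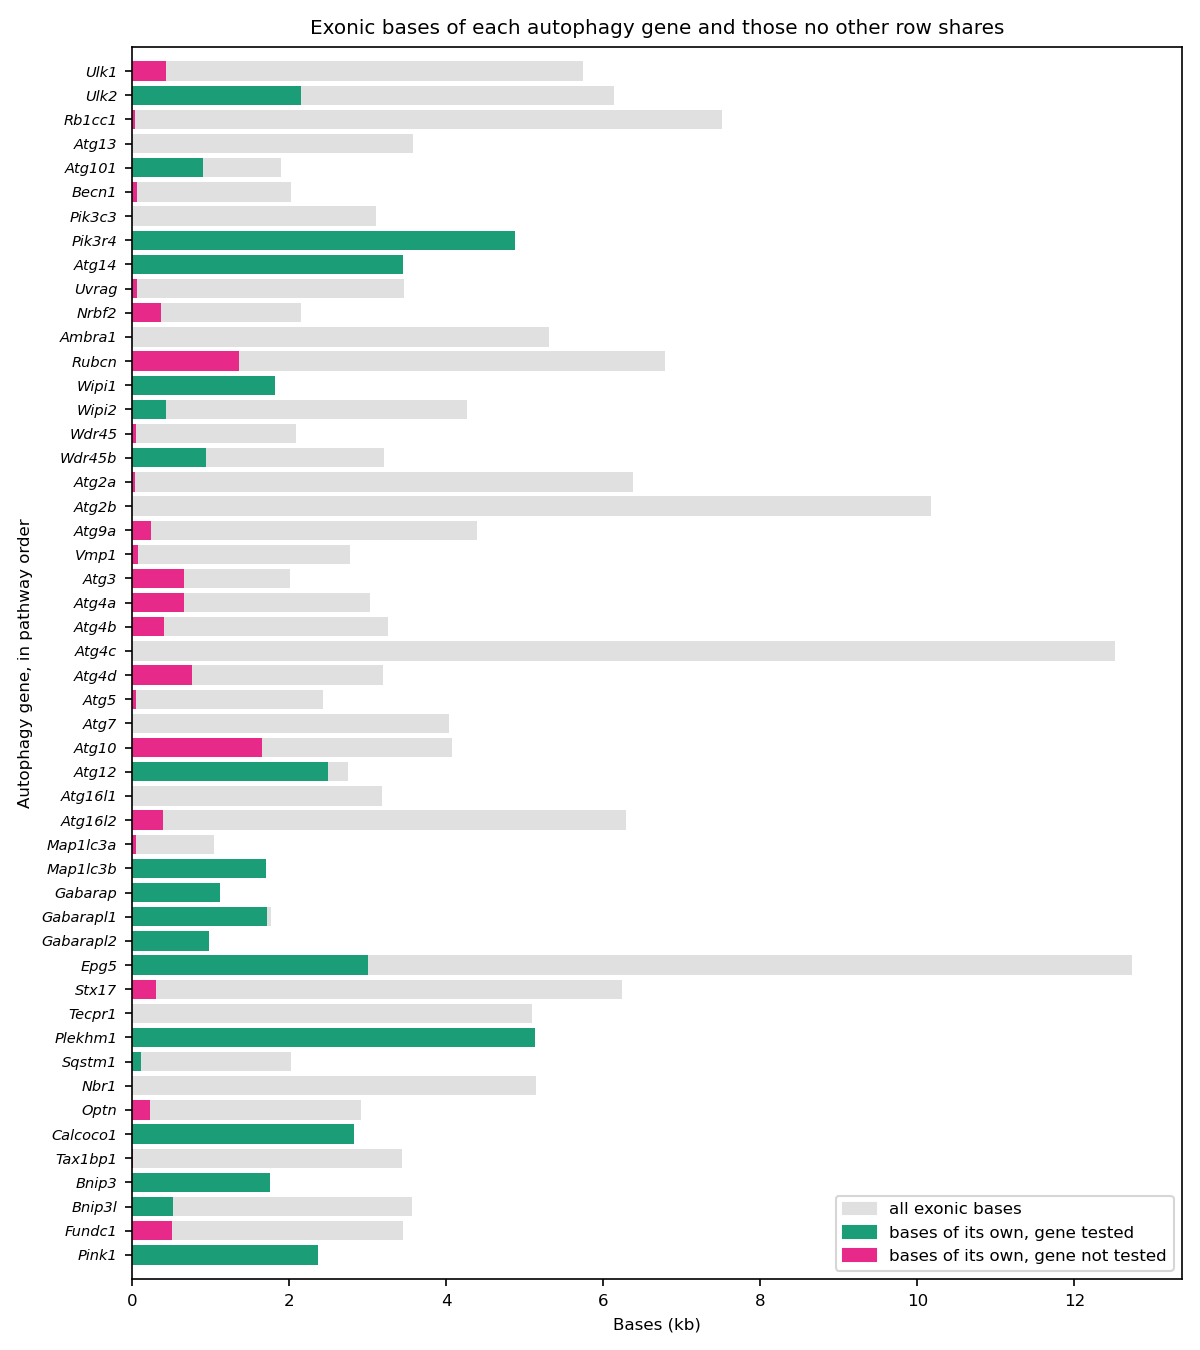
Exonic bases of each of the 50 autophagy genes in kb (grey) with the bases that no other row of the table shares in colour, green where the gene passed the low-count filter and was tested and pink where it was not. All 12 genes with at least 90% own bases were tested, and Atg4c, Atg7, Atg16l1, Atg2b and Pik3c3 had no own base.

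The 12 genes whose exons were at least 90% their own had between 448 and 5411 counts over the 4 libraries, and all 12 passed the low-count filter. The 17 readable genes with a smaller own share had between 1 and 194 counts, and 6 of them were tested. Of the 21 unreadable genes 12 had 0 counts in every library, and Sqstm1 was the single one tested. The next highest count among the unreadable genes was 11, for Map1lc3a. Unreadable genes made up 4 of 5 cargo receptors, 5 of 8 genes of membrane supply, 4 of 8 of the lipid kinase complex and 4 of 11 of the conjugation system. In the conjugation system, Atg7, the enzyme that activates ATG12 and the ATG8 proteins, Atg16l1, which sets the site of conjugation, and the ATG8 protease gene Atg4c had no own base, and Atg5, the partner of ATG12, had 58. In the lipid kinase complex, the catalytic subunit gene Pik3c3 had 0 own bases, Becn1 68 and Uvrag 60, with 5 and 3 counts, and Ambra1, a regulator of the complex, had 1 own base and 0 counts. The receptor genes Nbr1, Tax1bp1 and Optn had 5, 10 and 237 own bases. Of the 50 genes, 7 share exonic bases with a gene of another name, among them Becn1 with Cntd1 (435 bases) and Atg4d with Kri1 (792 bases). Rows without a symbol, 43 in all, overlap 17 of the genes and were not added to them. For the unreadable genes a count of 0 says nothing about expression.

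Depth differed between the groups, with 7206176 and 7128901 counts for the controls against 787600 and 1718944 for spermidine, and the row AY036118 took 1.68%, 1.64%, 29.6% and 30.7% of them in that order. Olfactory and vomeronasal receptor genes, which work in the nose, carried 0.0631, 0.154, 3.18 and 0.177 counts per kb of own bases, and this is taken below as each library's background. The marker lists differed between the groups. Summed CPM (counts scaled to the library total) of 10 granulosa and theca markers were 24.8 and 23.1 in the controls and 2290.5 and 5660.5 in spermidine, with Amh at 0 everywhere and Cyp19a1 at 0 in the controls, and those of 10 oocyte markers were 1.39 and 2.67 against 180.3 and 1962.3, with Zp2 and Nobox at 0. Those of 8 stroma markers were 68.6 and 139.7 against 2363 and 9065, and those of 6 endothelial markers 1.39 and 0.561 against 116.8 and 96.0, with Pecam1, Cdh5 and Tek at 0. Those of 6 surface epithelium markers were 0.278 and 0.701 against 107.9 and 192.6, and those of 8 leukocyte markers 660.5 and 481.8 against 179 and 34.9, with Laptm5 and Spi1 at 0. Of the markers named so far as at 0, Spi1 was readable, with 407 own bases. The others had between 0 and 254 own bases, so their counts of 0 say nothing about expression. In these lists Figla, Kdr, Krt19 and Lcp1 were readable and at 0 in both controls but not in spermidine. Their counts in spermidine 1 and 2 were 1 and 0, 8 and 51, 3 and 12, and 5 and 0. Lgals7 and Ptprc, under 300 own bases, were also at 0 in both controls. The 9 female germline stem cell markers summed to 294.6 and 278.9 against 176.5 and 281.0 CPM, and of 5 tested 3 rose and 1 fell. The list held 2123 and 1988 counts in the controls, most of them from Tex19.1 alone, so these sums do not compare the same genes. Tex19.1, which fell, had 1955 and 1770 counts against 36 and 25. The 3 that rose were Dppa3 (2 and 3 counts against 9 and 263), Ifitm3 (49 and 132 against 72 and 146) and Pou5f1. Pou5f1 was at 0 in both controls on 542 own bases and had 2 and 42 counts in spermidine. The defining germ cell gene Ddx4 was at 0 in both controls on its 434 own bases and had 1 count in spermidine 1. Prdm1, with 3311 own bases, was also at 0 in both controls and had 11 counts in spermidine 1. By the test described below, 8 of 8 tested granulosa and theca markers, 6 of 6 oocyte, 6 of 8 stroma, 3 of 3 endothelial and 4 of 4 surface epithelium markers were higher with spermidine, and 2 of 4 leukocyte markers were lower. Of all tested genes, 24.9% were higher and 4.12% lower. Markers at or near 0 in the controls could be tested only because they had counts with spermidine. Xist, the RNA of the inactive X chromosome, had 5 and 2 counts in the controls against 114 and 588 with spermidine. The part of Xist and of these lists in the values below was not tested. In such bulk libraries, fewer cells of a type and less RNA per cell cannot be told apart.

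Of the 50 genes, 19 passed the low-count filter. In the quasi-likelihood test of edgeR, with p adjusted by Benjamini-Hochberg over all 7836 tested genes, 1 of the 19 was higher in spermidine, Epg5, and 0 were lower (0 also at an unadjusted p under 0.05). The background of this comparison is 29.0% of tested genes called, 24.9% higher and 4.12% lower. That background includes genes that passed the low-count filter through the spermidine libraries alone. Of the 19 autophagy genes, 17 passed its cutoff in both controls, so the shares are not alike in make-up. With 1 CPM asked of all libraries, 280 of 5231 tested genes and 0 of 17 tested autophagy genes were called. Epg5 was also 1 of 3 genes at an unadjusted p under 0.05, the others being Calcoco1 and Pink1. DESeq2 called 1 of the 19 (Calcoco1) and limma-voom 1 (Epg5), both higher. The median log2 fold change of the 19 was 0.40, against 0.23 for all tested genes, and 11 of 19 were above 0. The smallest absolute log2 fold change of any called gene was 1.54, and 16 of the 19 autophagy genes lay inside it. Both spermidine libraries lay above both controls for 5 of the 19 (26.3%, against 36.6% of all tested genes) and below both for 2 (10.5%, against 29.6%). Epg5, 1 of the 5, passed the filter through the spermidine libraries alone, as did part of all tested genes.

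**Figure D2:**
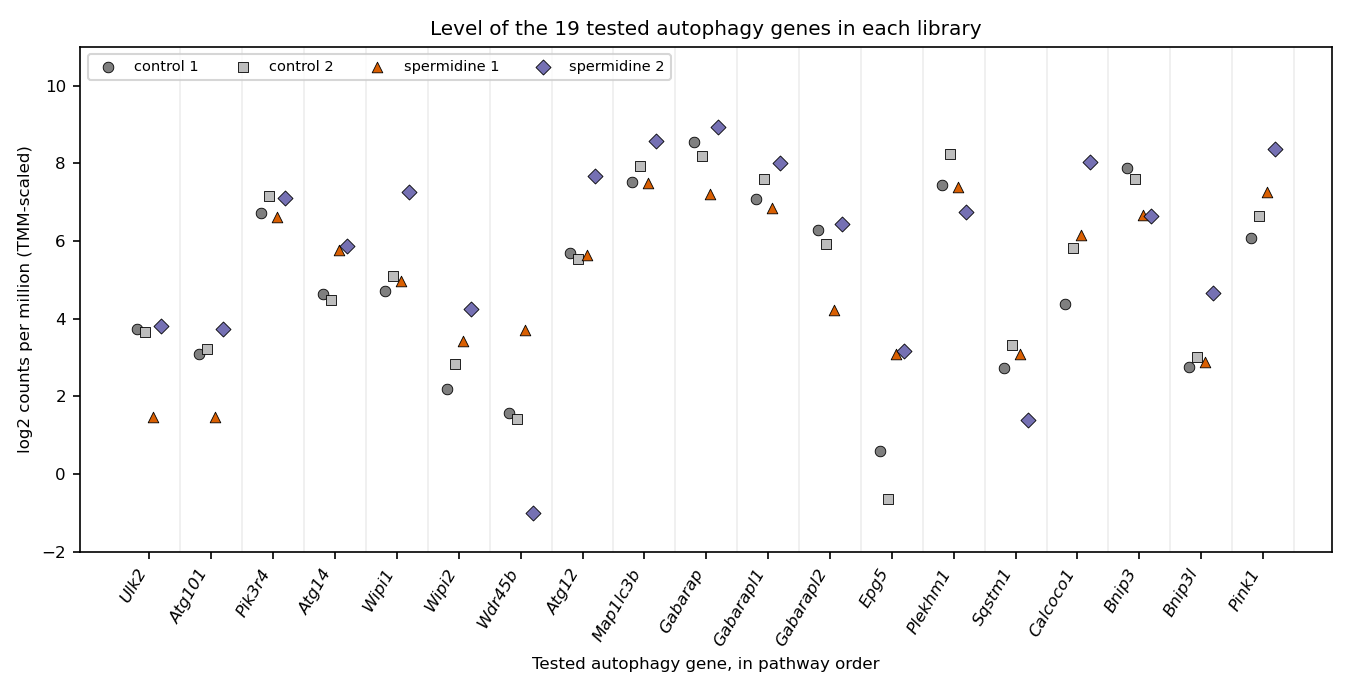
Log2 CPM, scaled by TMM factors, of each tested autophagy gene in control 1 (circle), control 2 (square), spermidine 1 (triangle) and spermidine 2 (diamond). Both spermidine points lie above both controls for Atg14, Wipi2, Epg5, Calcoco1 and Pink1 and below them for Plekhm1 and Bnip3.

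The 2 spermidine libraries differed from each other more than the controls did. For the 19 genes the median absolute log2 difference was 1.69 between the spermidine libraries and 0.38 between the controls, against 1.20 and 0.39 over all tested genes. In spermidine 2, 14 of the 19 lay above both controls and 4 below both, and in spermidine 1, 6 lay above and 9 below. Over all tested genes the shares were 46.5% above and 45.0% below in spermidine 2, and 51.2% and 41.1% in spermidine 1. Spermidine 2 was the higher of the pair for 15 of the 19 genes, against 47.5% of all tested genes, a comparison of single libraries with no replicate check. When each library was left out in turn, 9 of the 19 genes changed sign.

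**Figure D3:**
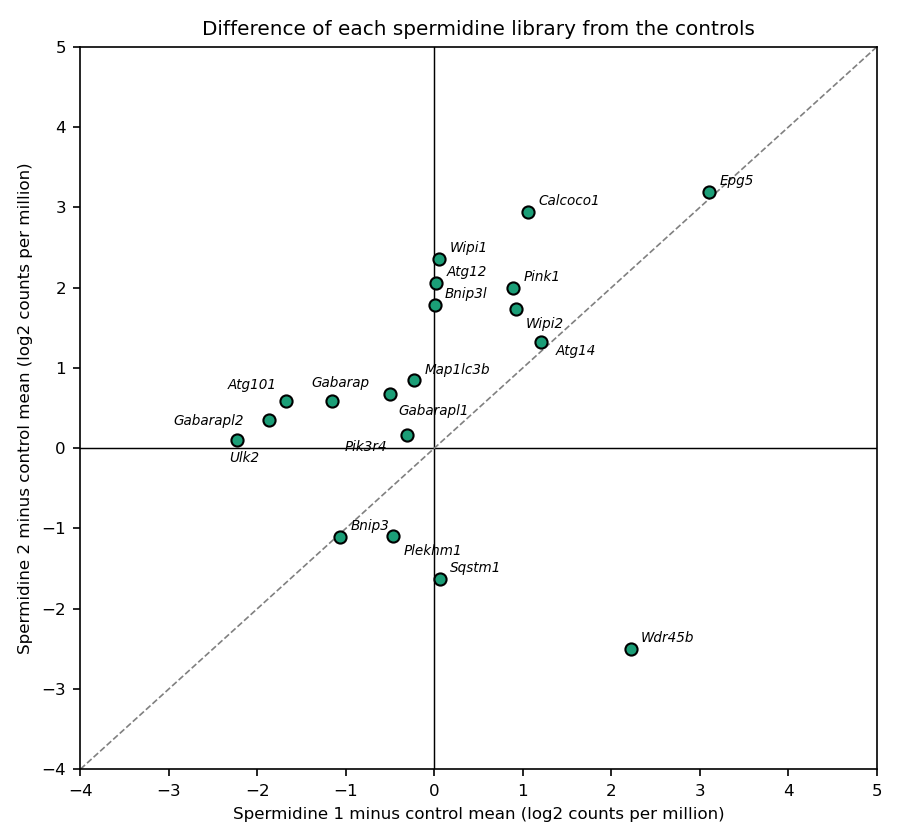
Difference of spermidine 1 (horizontal axis) and spermidine 2 (vertical axis) from the mean of the controls, in log2 CPM, for each tested autophagy gene, with the dashed line marking equal differences. Points above the line, 15 of 19, are higher in spermidine 2, and Ulk2, Atg101, Pik3r4, Map1lc3b, Gabarap, Gabarapl1 and Gabarapl2 lie left of 0 and above 0, with opposite signs in the 2 libraries.

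TFEB and its relatives bind the letters CACGTG, in a fuller form TCACGTGA, and these were looked for in the RefSeq promoter windows of 300 bases (GRCm38.p6), from 250 bases before each start to 50 after it. Windows were found for 41 of the 50 genes. On either strand (both words read the same on each, and the longer holds the shorter), CACGTG was in a window of 7 of the 41 genes (17.1%), against 8.09% of all genes with a window, and TCACGTGA in 2 (4.88%), against 1.12%. Among the tested genes Atg14 and Bnip3 hold CACGTG, and their spermidine libraries lay above both controls for Atg14 and below them for Bnip3. Nrbf2 and Atg3, both untested, hold the longer word. Atg5, Atg7 and Rubcn, also untested, hold the shorter word alone. The 4 windows shown are those with the full word or of a tested gene, 5′ to 3′ on the gene's strand, with CACGTG or TCACGTGA in capitals.
Atg14: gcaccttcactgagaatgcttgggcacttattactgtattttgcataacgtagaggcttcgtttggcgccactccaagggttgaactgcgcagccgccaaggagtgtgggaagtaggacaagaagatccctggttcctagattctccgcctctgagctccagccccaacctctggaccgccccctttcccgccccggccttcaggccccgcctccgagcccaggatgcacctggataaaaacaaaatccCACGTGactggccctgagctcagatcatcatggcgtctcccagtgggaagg
Bnip3: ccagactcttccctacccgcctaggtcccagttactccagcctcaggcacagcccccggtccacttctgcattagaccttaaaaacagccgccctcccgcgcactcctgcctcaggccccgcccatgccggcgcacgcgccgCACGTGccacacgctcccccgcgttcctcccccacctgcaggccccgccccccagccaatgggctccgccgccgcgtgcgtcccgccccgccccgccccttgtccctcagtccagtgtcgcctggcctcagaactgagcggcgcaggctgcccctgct
Nrbf2: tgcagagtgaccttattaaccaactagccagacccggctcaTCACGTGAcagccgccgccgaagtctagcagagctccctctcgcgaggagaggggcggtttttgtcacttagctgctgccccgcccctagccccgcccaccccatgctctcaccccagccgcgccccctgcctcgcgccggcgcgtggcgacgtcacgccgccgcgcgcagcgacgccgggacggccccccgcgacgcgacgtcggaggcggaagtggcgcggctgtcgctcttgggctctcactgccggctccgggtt
Atg3: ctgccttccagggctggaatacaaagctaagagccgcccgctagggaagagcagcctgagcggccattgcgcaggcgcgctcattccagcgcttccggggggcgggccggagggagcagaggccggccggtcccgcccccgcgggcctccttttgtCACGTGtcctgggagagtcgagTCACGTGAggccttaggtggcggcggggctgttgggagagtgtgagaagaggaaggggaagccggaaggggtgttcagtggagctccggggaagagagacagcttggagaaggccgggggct
The windows lie at chr14:47568385-47568684 (minus strand), chr7:138909457-138909756 (minus), chr10:67285232-67285531 (minus) and chr16:45158579-45158878 (plus), in that order. Counted with the start as 0, CACGTG begins at -1 in Atg14, at -108 in Bnip3, at -208 in Nrbf2 and at -94 and -71 in Atg3. A match is a description of these letters and not a binding site, and nothing in the table measures binding.

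The initiating kinase complex phosphorylates the first factors of autophagosome formation, and 2 of its 5 genes could be tested. Ulk2, a kinase of this complex, had 89 and 84 counts in the controls, against 2 and 19 with spermidine. The 2 counts in spermidine 1 are below the 6.83 counts that the background of that library would give on its 2149 own bases. Its log2 fold change was -0.51 ± 0.88 (SE), and it was 0.11 without spermidine replicate 1. Atg101, which stabilises ATG13 in the complex, had 55 and 61 counts against 2 and 18, with a background of 2.89 in spermidine 1. Its fold change of -0.0027 ± 0.96 on the log2 scale turned to 0.61 without spermidine replicate 1. Ulk1, with 431 own bases, had 2 counts, both in spermidine 1, where the background gives 1.37. Atg13 had 1 count on 8 own bases and Rb1cc1, the scaffold gene of the complex, had 0 on 43. Neither tested gene of this step passed the test (edgeR, Benjamini-Hochberg adjusted p of 0.699 for Ulk2 and 0.999 for Atg101).

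The lipid kinase complex makes the phosphoinositide that recruits later factors, and the genes of its scaffold and of its autophagy-specific subunit were readable over all their exons. Pik3r4, the scaffold VPS15, was counted 721 and 977 times in the controls and 86 and 192 times with spermidine. As a level, which here means CPM per kb of own bases over all counts, AY036118 included, these are 20.5 and 28.1 against 22.4 and 22.9, and the groups overlap. Its log2 fold change was -0.058 ± 0.52, and it was above 0 without spermidine replicate 1 (0.15) or control replicate 2 (0.17). Atg14 (chr14:47540893-47568434, minus strand), which directs the complex to autophagy, had 169 and 150 counts against 47 and 82. Its levels were 6.80 and 6.10 against 17.3 and 13.8, with both spermidine libraries above both controls, and the background would give 10.96 of the 47 counts in spermidine 1. The log2 fold change was 1.28 ± 0.57 and was not called (edgeR, Benjamini-Hochberg adjusted p = 0.132). It ranged from 1.20 to 1.44 when each library was left out, the narrowest range of the 19 genes. Rubcn, a negative regulator of the complex, was not tested, with 1 and 1 counts against 16 and 2, and the background gives 4.31 in spermidine 1. Nrbf2, another subunit, had 2 and 10 counts in the controls, and none with spermidine, on 369 own bases, which is not a detectable difference at this depth (pooled ratio 0, 95% counting interval 0 to 2.18). Intervals here cover counting error only.

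Among the genes that supply membrane, the WIPI family, which reads the phosphoinositide, gave the 3 testable members. Wipi1 gave 179 and 234 control counts, and 27 and 217 with spermidine. Its levels of 13.7 and 18.1 against 18.9 and 69.5 lie close to each other except in spermidine 2. The log2 fold change of 1.67 ± 0.74 was not called (adjusted p = 0.132, edgeR with Benjamini-Hochberg adjustment), and without spermidine replicate 2 it was 0.11. Wipi2, which recruits the conjugation machinery, had 28 and 46 counts against 9 and 26, or levels of 8.99 and 14.9 against 26.5 and 35.0. Both spermidine libraries were above both controls, with a log2 fold change of 1.47 ± 0.80 that was not called (adjusted p = 0.209, same test). Wdr45b, another gene of the WIPI family, had 17 and 15 counts against 11 and 0, and its value of 1.14 ± 1.26 became -6.57 without spermidine replicate 1 and a called 2.49 without spermidine replicate 2 (edgeR, Benjamini-Hochberg adjusted p = 0.0349). Atg2a, Atg2b, Atg9a, Vmp1 and Wdr45 had under 300 own bases and at most 6 counts each.

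The conjugation system was visible through 1 tested gene. Atg12, the ubiquitin-like protein joined to ATG5, had 351 and 319 counts in the controls, against 43 and 287 with spermidine, or levels of 19.6 and 18.0 against 21.9 and 67.0. Spermidine 1 lay between the 2 controls on the TMM scale and spermidine 2 above them. The log2 fold change of 1.41 ± 0.69 was not called (adjusted p = 0.164 by edgeR with Benjamini-Hochberg adjustment), and was 0.076 without spermidine replicate 2. Atg10, the enzyme that transfers ATG12, had 0 counts in both controls and 9 and 1 in spermidine. The background gives 5.27 of the 9 counts in spermidine 1, and no fold is given. The ATG8-conjugating enzyme gene Atg3 had 4 and 4 counts against 2 and 0, and the ATG8 protease genes Atg4b and Atg4d had 5 and 5 against 3 and 0, and 12 and 14 against 1 and 0. Atg4a and Atg16l2 had 1 and 9 counts in all. These untested genes are given by their counts alone.

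The ATG8 family, the proteins that coat the autophagosome membrane and bind receptors, was the most abundant of the steps and the best read, with 4 of 5 genes readable over at least 97.3% of their exons. Map1lc3b (chr8:121590468-121598047), the gene of LC3B, was counted 1263 and 1680 times in the controls and 157 and 533 times with spermidine. Gabarap (chr11:69991370-69994949) had 2570 and 2018 against 129 and 694. Gabarapl1 had 940 and 1329 against 100 and 362, and Gabarapl2 had 534 and 416 against 16 and 122. After TMM scaling spermidine 1 was below both controls and spermidine 2 above both for all 4 genes, so the groups overlap. In the order given, the log2 fold changes were 0.40 ± 0.55, -0.041 ± 0.63, 0.19 ± 0.57 and -0.33 ± 0.70, with adjusted p of 0.628, 0.972, 0.832 and 0.756 by edgeR with Benjamini-Hochberg adjustment. Without spermidine replicate 2 the values were -0.18, -1.12, -0.45 and -1.86, the last of which was called lower (adjusted p = 0.0279), and without spermidine replicate 1 they were 0.83, 0.57, 0.65 and 0.34. The sign of each of these genes thus followed the spermidine library kept. Map1lc3a, with 56 own bases, had 1, 2, 7 and 1 counts.

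Ratios within a library do not depend on the scaling between libraries, and per kb of own bases Gabarap led the family throughout. Per kb, it made up 55.6% and 45.3% of the 4 genes' summed level in the controls and 40.9% and 48.9% in spermidine, the highest share in every library. Map1lc3b followed with 17.9% and 24.7% against 32.6% and 24.6%, while Gabarapl1 took 13.2% and 19.4% against 20.6% and 16.6%. Gabarapl2 took 13.2% and 10.7% against 5.81% and 9.85%, level with Gabarapl1 in control 1 and the lowest share in the other 3 libraries. Before division by own bases, Map1lc3b had more counts than Gabarap in spermidine 1, with 157 against 129. Of the family's counts, Gabarapl2 held 10.1% (95% exact Clopper-Pearson interval 9.27 to 10.9) and 7.64% (6.95 to 8.38) in the controls, and 3.98% (2.29 to 6.38) and 7.13% (5.96 to 8.45) in spermidine. Its share was lowest in spermidine 1, where it rests on 16 counts, while the intervals of control 2 and spermidine 2 overlap. No source used here says how reads that map to several places, such as pseudogene copies of these genes, were counted, so these values are uncertain where such copies share reads.

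**Figure D4:**
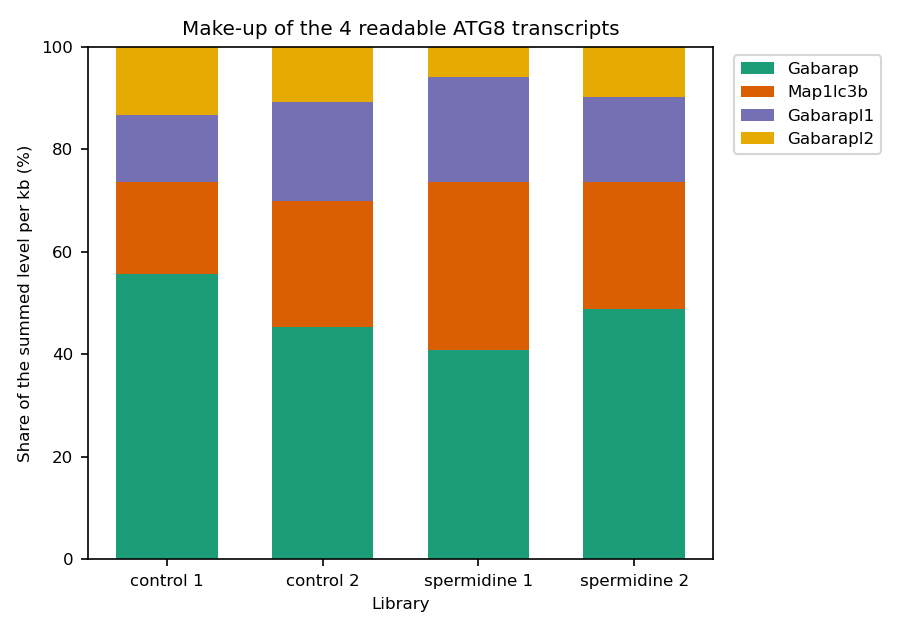
Share of each of the 4 readable ATG8 genes in their summed level per kb of own bases, in percent, for each library. Gabarap is the largest part of each bar, from 40.9% in spermidine 1 to 55.6% in control 1.

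Of the 4 fusion genes, 2 were tested. Epg5, a tether between autophagosome and lysosome, was called, with a log2 fold change of 3.77 ± 1.002 (edgeR, Benjamini-Hochberg adjusted p = 0.0197). It rests on 7 and 1 counts in control 1 and 2, and 7 and 12 in spermidine 1 and 2, and it passed the low-count filter through the spermidine libraries alone, so being tested already required it to be high there. The background gives 9.55 counts on its 3007 own bases in spermidine 1, more than the 7 seen, and 0.534 in spermidine 2, fewer than the 12 seen. The adjusted p was 0.0664 without control replicate 1, 0.172 without control replicate 2 and 0.0712 without spermidine replicate 1, 0.274 with no filter on low counts and 0.0831 by DESeq2. With the background subtracted it had too few counts to be tested. Plekhm1, an adaptor between late endosomes, lysosomes and the ATG8 proteins, had 1203 and 2106 counts against 146 and 151. Its levels were 32.6 and 57.6 against 36.1 and 17.1, and both spermidine libraries were below both controls after TMM scaling though not in CPM. The log2 fold change of -0.81 ± 0.55 was not called (adjusted p = 0.308, same test). Stx17, the SNARE gene of the autophagosome, had 2 counts on 313 own bases and Tecpr1 0 on 4.

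Among cargo receptors, Calcoco1 (chr15:102706777-102722178), a receptor for parts of the endoplasmic reticulum, came closest to a call after Epg5. It gave 140 and 387 control counts, and 62 and 371 with spermidine, with levels of 6.88 and 19.2 against 27.9 and 76.4. Both spermidine libraries were above both controls, though the higher control and the lower spermidine library differ less than the 2 controls do. The log2 fold change was 2.15 ± 0.77 (adjusted p = 0.068, edgeR with Benjamini-Hochberg adjustment). It was 0.98 without spermidine replicate 2, 2.79 without spermidine replicate 1 and 3.05 without control replicate 2, and it was called with RLE factors (edgeR, adjusted p = 0.04998), upper-quartile factors (0.0366) and DESeq2 (0.0246). Sqstm1, the gene of the receptor p62, had 42 and 66 counts on its 114 own bases against 7 and 3. Spermidine 1 lay between the 2 controls after scaling and spermidine 2 below both. Its log2 fold change of -0.78 ± 1.01 was 0.10 without spermidine replicate 2. The other receptor genes Nbr1, Tax1bp1 and Optn had 0, 0 and 4 counts.

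Mitophagy genes gave 2 abundant transcripts with values on opposite sides of the controls, neither of them called. Pink1 (chr4:138313409-138326296), the kinase that marks damaged mitochondria, had 467 and 694 counts in the controls, against 134 and 466 with spermidine, with levels of 27.4 and 41.1 against 71.9 and 114.5. Both spermidine libraries were above both controls. The log2 fold change of 1.54 ± 0.58 was not called (adjusted p = 0.0814, edgeR with Benjamini-Hochberg adjustment), and it was called with upper-quartile factors (0.0283), library totals (0.0373) and the background subtracted (0.0422). Neither DESeq2 (adjusted p = 0.0584) nor limma-voom (0.107) called it. Leaving out each library gave values from 0.94, without spermidine replicate 2, to 1.98. Bnip3 (chr7:138890836-138909506), a mitochondrial receptor known as a target of hypoxia signalling, had 1630 and 1331 counts against 89 and 139, with levels of 128.8 and 106.3 against 64.4 and 46.1. Both spermidine libraries were below both controls, by 1.06 and 1.10 from the control mean on the log2 scale. Its log2 fold change was -1.10 ± 0.50 (adjusted p = 0.144, same test), and it ranged from -1.24 to -0.87 when each library was left out. The related receptor gene Bnip3l had 43 and 52 counts against 6 and 35, with a log2 fold change of 1.30 ± 0.82 that was 0.061 without spermidine replicate 2. Fundc1, a receptor of the outer mitochondrial membrane, had 6 and 3 counts in the controls and none with spermidine, and was not tested.

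**Figure D5:**
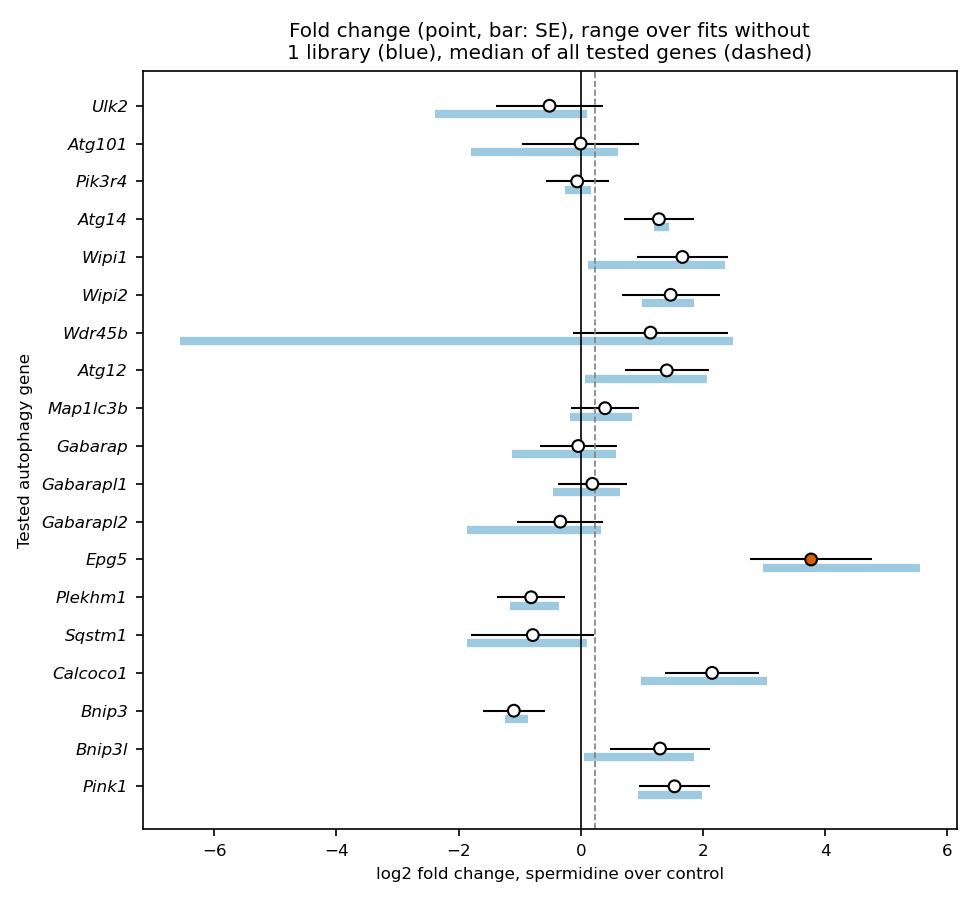
Log2 fold change of spermidine over control for each tested autophagy gene (point) with its standard error (black bar), the lowest and highest value when each library was left out in turn (blue bar) and the median of all tested genes, 0.23 (dashed). The filled point, Epg5, is the one called gene, and the blue bars of Ulk2, Atg101, Pik3r4, Wdr45b, Map1lc3b, Gabarap, Gabarapl1, Gabarapl2 and Sqstm1 cross 0.

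Summed over the readable genes of each step, levels also differed between the spermidine libraries. The ATG8 family summed to 571.4 and 557.5 in the controls and to 356.7 and 735.4 in spermidine. Mitophagy genes summed to 169.3 and 162.3 against 150.9 and 199.7, and initiation genes to 14.1 and 14.9 against 9.86 and 16.6. In these 3 steps the controls lie between the spermidine libraries. The initiation sum of spermidine 1 rests on 2 counts each of Ulk2, Atg101 and Ulk1, where the background gives 6.83, 2.89 and 1.37. Membrane supply genes summed to 25.2 and 35.2 against 60.2 and 104.5, and conjugation genes to 25.7 and 23.7 against 56.4 and 67.4. For the cargo receptors the sum is Calcoco1 alone, at 6.88 and 19.2 against 27.9 and 76.4. In those 3 steps both spermidine libraries were higher. The conjugation sum of spermidine 1 includes Atg10, Atg16l2 and Atg4b, with 9, 4 and 3 counts. The background of that library gives 5.27, 1.26 and 1.31 of them. No background was subtracted from the sum of any step, and spermidine 1 has the highest background. Lipid kinase complex genes summed to 28.1 and 38.1 against 54.6 and 37.6, and fusion genes to 32.9 and 58.6 against 39.1 and 19.5. The share of AY036118 enters these sums: with it left out of the totals, mitophagy genes summed to 172.2 and 165.0 against 214.3 and 288.3, and lipid kinase complex genes to 28.6 and 38.7 against 77.6 and 54.2, so that the groups no longer overlapped in these steps. The sums were given no test.

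Around these 50 genes, 65 other genes of the pathway were followed, from upstream kinases to SNARE proteins and further receptors. Of these 42 were readable and 22 were tested, and 1 was higher and 0 lower in the edgeR fit (1 lower at an unadjusted p under 0.05, and 0 lower with DESeq2 and with limma-voom). Over all tested genes in that fit, 24.9% were higher and 4.12% lower, including genes that passed the filter through the spermidine libraries alone. The median log2 fold change of the tested pathway genes was -0.40, against 0.23 for all tested genes. The called gene was Foxo1, a transcription factor that acts on autophagy genes, with 426 and 726 counts in control 1 and 2, and 228 and 1954 in spermidine 1 and 2. Its log2 fold change was 3.31 ± 0.83 (adjusted p = 0.0165, edgeR with Benjamini-Hochberg adjustment). The spermidine counts are unequal, and Foxo1 had 1.72 without spermidine replicate 2 and lost its call without control replicate 1 (0.176), control replicate 2 (0.0818) or spermidine replicate 1 (0.0544), and with no filter on low counts (0.313). Foxo1 is also expressed in granulosa cells, whose markers are higher in the spermidine libraries as given above, and their part in this value was not tested.

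None of 5 tested genes of the upstream kinase list was called. Rheb, the small GTPase that activates mTOR, had the smallest p, with 2211 and 1745 counts against 82 and 198 and a log2 fold change of -1.28 ± 0.52 (adjusted p = 0.104, edgeR with Benjamini-Hochberg adjustment). In the transcription and acetylation list Foxo1 had the smallest p, and in the other lists the gene with the smallest p was not called. Smcr8, a partner of C9orf72, had 750 and 1222 counts against 66 and 108. Vamp8, a SNARE protein of the lysosome, had 1621 and 1765 against 120 and 184, with a log2 fold change of -0.87 ± 0.49. Nipsnap1, a mitochondrial protein, had 72 and 62 against 4 and 5. Tfeb, the master regulator of lysosome genes, had 10 and 46 against 11 and 5 and a log2 fold change of 0.85 ± 1.10, and was chosen for mention after its value was seen.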

How the data were processed

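The authors' deposited values are raw whole-number counts; the file headers give exon positions for each of 106519 RefSeq transcripts. The submitters' processing notes name HISAT2, DESeq2 and mm9 without roles. Of the rows, 80.8% matched a RefSeq GRCm38 gene symbol, 88.5% of which fell within the GRCm38 span of that gene, and positions are therefore written in GRCm38. Row length in bases is another deposited value, per the file headers, and was not used for scaling. Rows of a gene were summed. Rows without a symbol held between 1.15% and 4.47% of a library's counts. Genes passed edgeR's filterByExpr (count minimum 10, total minimum 15), received TMM factors and went into the quasi-likelihood test of edgeR 4.0.16 (R 4.3.3), with 2 residual degrees of freedom and a threshold of 0.05 on Benjamini-Hochberg adjusted p. Log2 CPM used a prior count of 2. The procedure was tested on simulated counts. Between replicates, log2 values correlated across genes at 0.969 in the controls and 0.732 in spermidine, so neither pair is a duplicate. Alternatives were scaling, filters, DESeq2 1.42.0, limma-voom 3.58.1, a replicate block, each library left out, transcript rows, AY036118 left out, background subtracted and, added after the data were seen, edgeR's legacy fit. The members and gene lists were chosen with earlier results of these data known. All 50 genes are accounted for, and of the 65 further genes each called one and the smallest p of each list are named.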

Additional observations from a re-analysis of the deposited data

Results flagged for a closer look

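A transcript row without a gene symbol overlaps exons of Tax1bp1, an ubiquitin-binding cargo receptor, and was not added to the counts of that gene. It lies on the plus strand of chromosome 6 from 52713902 to 52766775 (GRCm38) and has 728 own bases, against 10 for the rows named Tax1bp1. Its counts were 9 and 14 for the controls against 30 and 9 for spermidine, or 1.25 and 1.96 CPM against 38.1 and 5.24. Both spermidine libraries were above both controls and above the 2.31 and 0.129 counts that the receptor background gives. Its fold change and p-value are not reported here.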

How the results depend on the processing

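Over 16 alternatives, 261 of 300 values of single genes kept their direction and their side of the threshold. The number of genes called, 2273, was 0 without the filter on low counts (where 4527 had an unadjusted p under 0.05), 280 with 1 CPM asked of all libraries and 1495 with the receptor background subtracted, and ranged from 0 (without control replicate 1, where 1958 had an unadjusted p under 0.05) to 3725 over the fits without a library. The lone library was there assumed to vary like the other group. Autophagy genes called, 1 as reported, were 2 with RLE factors (Calcoco1, Epg5), 3 with upper-quartile factors (Calcoco1, Epg5, Pink1), 2 with library totals (Epg5, Pink1), 0 with no filter, with 1 CPM in all libraries and with the legacy fit, and 0 to 3 without a library, the 3 being Epg5, Gabarapl2 and Wdr45b without spermidine replicate 2. Same-numbered libraries did not deviate together from their group means (r = -0.030 across genes). With 2 libraries in each group this cannot show that the numbers pair nothing. With the replicate block, 1800 genes and 1 autophagy gene (Epg5) were called. Signs changed with the scaling or filter in these cases: Atg101 was 0.047 with RLE factors, 0.083 with upper-quartile factors, 0.30 with 1 CPM in all libraries, 0.038 with transcript rows and 0.037 with the background subtracted; Pik3r4 was 0.090 with upper-quartile factors, 0.0059 with library totals, 0.31 with 1 CPM and 0.097 with the background subtracted; Gabarap was 0.0099, 0.28 and 0.16 with upper-quartile factors, 1 CPM and the background subtracted; Gabarapl1 was -0.20 with no filter. Without a library, values ranged from -2.38 to 0.11 for Ulk2, -1.80 to 0.61 for Atg101, -0.25 to 0.17 for Pik3r4, -6.57 to 2.49 for Wdr45b, -0.18 to 0.83 for Map1lc3b, -1.12 to 0.57 for Gabarap, -0.45 to 0.65 for Gabarapl1, -1.86 to 0.34 for Gabarapl2 and -1.86 to 0.10 for Sqstm1. With library totals that leave out AY036118, mean spermidine levels per kb moved from 13.2 to 19.01 for initiation, 46.1 to 65.9 for the lipid kinase complex, 82.3 to 118.1 for membrane supply, 61.9 to 88.6 for conjugation, 175.3 to 251.3 for mitophagy, 546.1 to 784.0 for the ATG8 family, 29.3 to 41.8 for fusion and 52.2 to 74.9 for receptors, the last 3 by less than the SD between the spermidine libraries. Readable genes numbered 31 at 150 own bases and 21 at 600. Depth limits the spermidine libraries: 3 counts are 3.81 and 1.75 CPM there against 0.416 and 0.421 in the controls. The cause of these changes was not tested.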
